A study of Mus musculus with 29 samples.

Results

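The comparison described here is that of mouse hearts with postnatal cardiac ablation of protein kinase C delta (PKCδ) against wild-type hearts, both without surgery. Its members are the 7 unstressed libraries of those genotypes, 3 PKCδ-ablated and 4 wild type (titled ntg), of 29 libraries in the series. Of 23420 genes listed in the count files, 13765 passed the filter on low counts and were tested. All 7 hearts were labelled C57BL/6J, male and 12 weeks old. The same loss was also read in 2 other comparisons, PKCδ loss on top of germline PKCε knockout (3 PKCε-null against 4 combined knockout libraries, unstressed) and PKCδ ablation under pressure overload, at 4 weeks from surgery that narrows the aortic arch (transverse aortic constriction, TAC; 3 against 4 wild-type TAC libraries). Libraries of these comparisons were also labelled 12 weeks old. The unstressed ones were labelled male, as were the TAC ones except wild-type replicate 4 and PKCδ-ablated replicates 2 and 3, labelled female. RNA came from the ventricular apex, was selected for poly(A) tails and sequenced without strand information. The labels do not name the Cre driver, the deleted exons, the hour of collection or the link of libraries to litters. The numbers in the descriptions of the PKCδ-ablated libraries are consecutive, whereas those of the wild-type libraries are not.

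PKCδ is a serine/threonine kinase of the calcium-independent class of protein kinase C, which is recruited to membranes and activated by diacylglycerol, a lipid released by phospholipase C downstream of Gq-coupled receptors. In cardiac myocytes it phosphorylates sarcomeric, mitochondrial and signalling proteins, and it has been studied in ischemic injury and in hypertrophy, often beside PKCε, which shares its activator. The unstressed heart with and without PKCδ shows what the kinase's loss changes in RNA before any load.

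Gene counts per library ranged from 10523709 to 15359296 in these 7 libraries. Cardiomyocyte markers identified the tissue in every one of them: their summed level was 141403 to 161139 CPM (gene counts scaled to a common library total) in wild type and 136317 to 142633 CPM in PKCδ-ablated hearts, ranges that overlap. The ribosomal RNA precursor Rn45s took 11.9% to 14.1% of gene counts in wild type and 9.9% to 12.7% in PKCδ-ablated hearts. Markers of lymphocytes summed to 5.26 to 7.81 CPM in wild type and 7.11 to 8.42 CPM in PKCδ-ablated hearts. Wild-type replicates 1 and 4 were closer to each other (chi-square per degree of freedom of 2.24) than any other pair of the group (6.9 to 12.7), though above sampling noise, and each was counted as a sample.

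Sex-linked transcripts went against the sex label in 5 of the 7 libraries. Wild-type replicates 1 and 4 held Y-linked transcripts (Ddx3y, Eif2s3y, Kdm5d and Uty summed to 51.6 and 59.6 CPM) with Xist, the RNA that coats the inactive X chromosome, at 0.361 and 1.27 CPM. Wild-type replicates 2 and 3 held Xist at 143 and 181 CPM, with Y-linked transcripts at 0 and 0.201 CPM. The PKCδ-ablated libraries held Xist at 143, 135 and 154 CPM, and their Y-linked counts were 0, 0 and 1. Thus the ablated libraries resembled wild-type replicates 2 and 3 in these transcripts and differed from replicates 1 and 4, and results are given below with all 4 wild-type libraries and, where it matters, with replicates 2 and 3 alone. In other groups some libraries held Xist and Y-linked transcripts together: the PKCδ TAC libraries had 43, 62.9 and 57.9 CPM of Xist and 35.7, 31.6 and 24.7 CPM of Y-linked transcripts. Unstressed PKCε-null libraries had 53.7, 1.47 and 168 CPM of Xist and 44.8, 58.8 and 0.0778 CPM of Y-linked transcripts. The unstressed combined knockout had 2.7, 130, 42.1 and 128 CPM of Xist and 44.1, 1.83, 27.1 and 0.755 CPM of Y-linked transcripts.

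The targeted gene did not fall. Prkcd (chr14:30595353-30626414, GRCm38), which encodes PKCδ, was at 15.5, 15.9, 13.4 and 15.8 CPM in wild type and at 18.7, 16.3 and 17.6 CPM in PKCδ-ablated hearts. Every ablated library lay above every wild-type library, and the difference of 0.21 ± 0.13 (log2, SE) did not pass the test (adjusted p = 0.38). The deleted part of the gene is not given in the sources used here, so a count over the whole gene does not check the label. Prkce, which encodes PKCε, was at 46.9, 52.9, 49.2 and 49.5 CPM in wild type and at 42.9, 43.7 and 42.4 CPM in PKCδ-ablated hearts (-0.21 ± 0.26, adjusted p = 0.72). In the PKCε-null libraries it was at 9.19, 8.4 and 7.62 CPM.

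PKCδ-ablated and wild-type libraries differed in 729 genes, 5.30% of the genes tested, at an adjusted p below 0.05, of which 363 were higher and 366 lower. Most differences were small. The median size among called genes was 0.51 on the log2 scale, and 125 genes differed at least 2-fold, 80 of them higher and 45 lower. For 682 of the 729 the libraries of the groups did not overlap, a pattern that 20.0% of all genes tested showed (10.5% with the ablated libraries higher and 9.55% with them lower). Along principal component 1 (47.7% of the variance among the 7 libraries) the ablated libraries lay at 16.5, 11.6 and 16.6 and the wild-type libraries at -16.8, -3.59, -9.88 and -14.5, with wild-type replicate 2 nearest to the ablated side. With wild-type replicates 2 and 3 as the only controls, 105 genes passed, 98 of them among the 729 and in the same direction. Leaving out a single library gave 206 (without PKCδ replicate 3), 235 (without PKCδ replicate 1), 266 (without wild-type replicate 1), 383 (without wild-type replicate 4), 567 (without wild-type replicate 3), 607 (without PKCδ replicate 2) or 750 (without wild-type replicate 2) called genes.

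**Figure D1:**
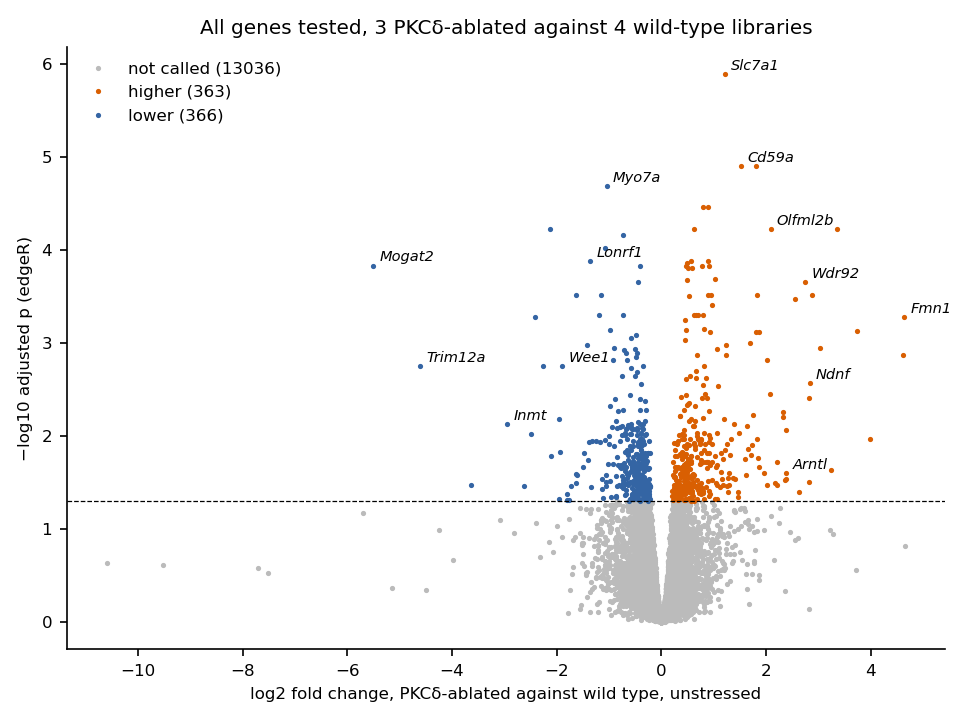
Each point is a gene, with the log2 fold change between 3 PKCδ-ablated and 4 wild-type unstressed libraries on the horizontal axis and −log10 of edgeR's adjusted p on the vertical axis; the dashed line marks an adjusted p of 0.05. Similar numbers lie on each side, 363 higher and 366 lower, and Slc7a1 is the gene with the smallest adjusted p.

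The largest rise among genes of moderate level was in Fmn1 (chr2:113327664-113716768), which encodes formin 1, a protein that nucleates and elongates actin filaments. It was at 1.66, 1.73, 2.11 and 2.14 CPM in wild type and at 48.7, 47 and 46.8 CPM in PKCδ-ablated hearts, a 24.9-fold difference (4.64 ± 0.70, adjusted p = 0.00053). The ablated libraries were alike and stood far above every wild-type library. The rise did not recur where PKCδ was lost otherwise: the combined knockout had 5.47, 2.86, 3.09 and 2.4 CPM and the PKCδ TAC hearts 1.69, 2.4 and 2.3 CPM. The effect differed between TAC and unstressed hearts (interaction of -4.89, adjusted p = 0.043) and between the PKCε-null and the wild-type background (-3.86, adjusted p = 0.033). DESeq2 gave a like fold change (4.63) and no adjusted p for it.

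Ndnf (chr6:65671611-65712323), a secreted protein named for its action on neurons, rose from 2.24, 2.7, 3.42 and 2.41 CPM to 18.6, 19.3 and 19 CPM (2.84 ± 0.51, adjusted p = 0.0027). Its groups did not overlap, as the rule that picked it required. Ndnf was also high in the unstressed combined knockout (41.4, 17, 27.7 and 20.2 CPM) against PKCε-null hearts (2.87, 2.43 and 3.27 CPM), a separate contrast of 3.21 ± 0.54 (adjusted p = 0.00031). After TAC the PKCδ-ablated hearts were at 1.49, 2.47 and 2.77 CPM. With wild-type replicates 2 and 3 alone its fold change was 2.64 (adjusted p = 0.083). Wdr92, which encodes a WD-repeat protein linked to the assembly of axonemal dynein, rose from 14.6, 12.3, 20.8 and 14.6 CPM to 136, 82.2 and 93.5 CPM (2.75 ± 0.38, adjusted p = 0.00022). It was also high in PKCε-null hearts (72.1, 77.2 and 36.3 CPM), and the direct contrast of the single ablations did not pass (0.75, adjusted p = 0.39). Wdr92 shares 18.5% of its exonic bases with Ppp3r1 on the same strand, so its reads may in part be set aside as ambiguous.

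**Figure D2:**
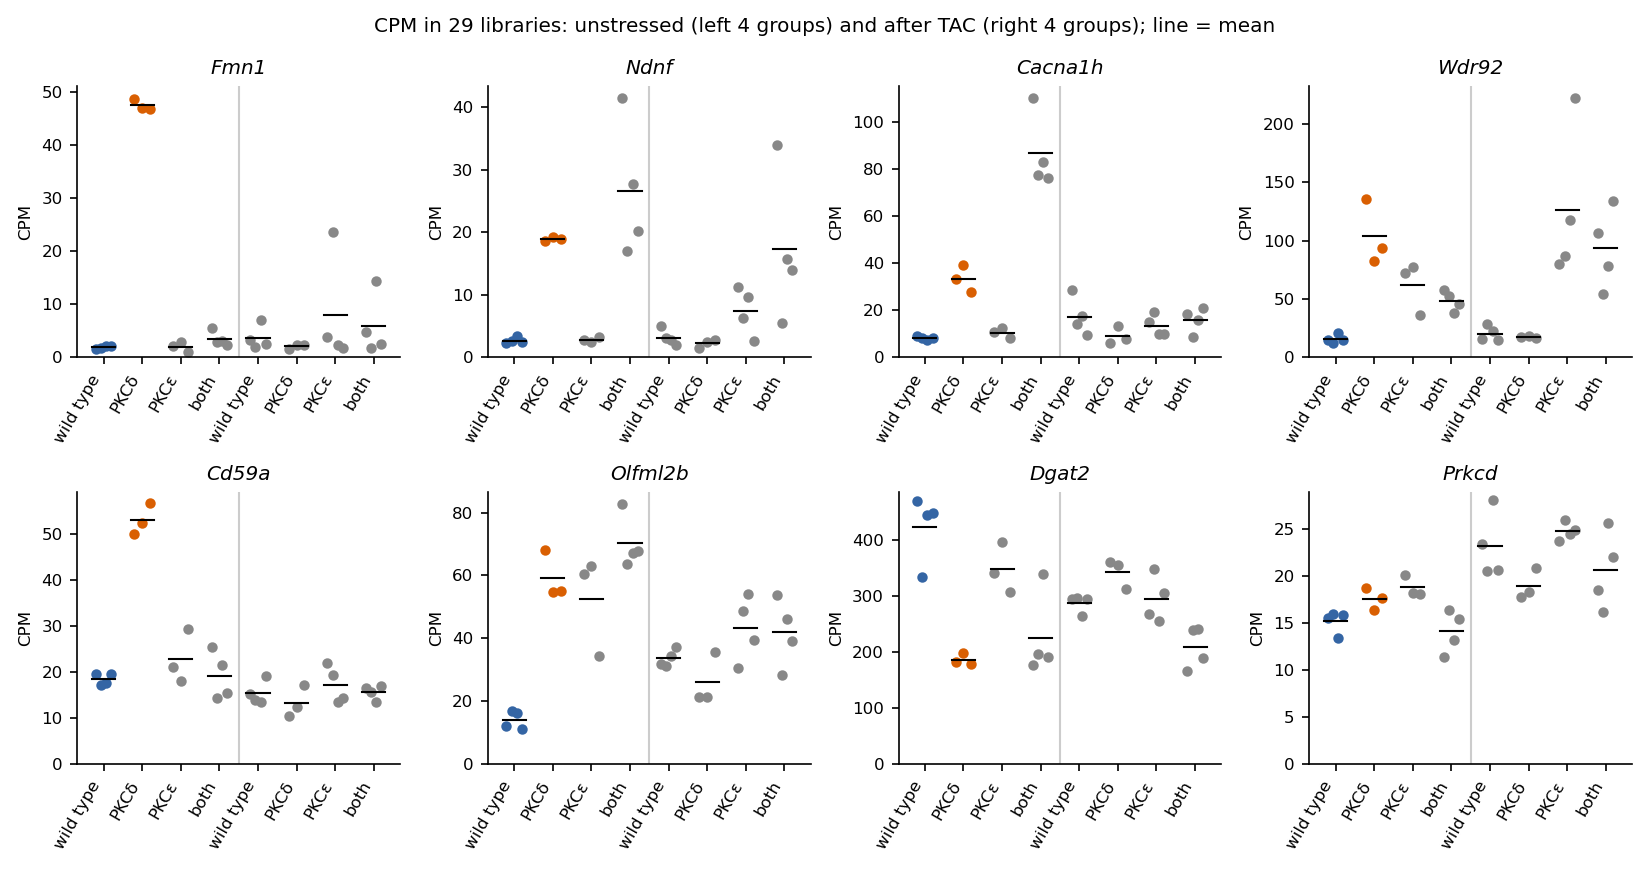
CPM in each of the 29 libraries (dots) with group means (lines) for 8 genes, unstressed groups on the left of the grey line and TAC groups on its right, unstressed wild type in blue, unstressed PKCδ-ablated in orange and the other groups in grey. Fmn1 and Cd59a are high in the unstressed PKCδ-ablated group, Ndnf and Cacna1h also in the unstressed group with both kinases ablated, and Prkcd is not lower in the ablated group.

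Channel and transporter genes were among the largest rises. Cacna1h, the pore subunit of the T-type calcium channel CaV3.2, a channel of fetal ventricle and pacemaker tissue, was at 9.16, 8.19, 7.23 and 8.22 CPM in wild type and at 33.1, 39.4 and 27.6 CPM in PKCδ-ablated hearts (2.02 ± 0.34, adjusted p = 0.0015). The groups were well apart, and the combined knockout was higher still (110, 77.5, 83.1 and 76.1 CPM, against 10.8, 12.6 and 8.25 CPM in PKCε-null hearts). Kcne1, a subunit that slows the potassium channel of the repolarising current IKs, rose from 1.8, 3.98, 3.92 and 2.14 CPM to 19, 13.3 and 13 CPM (2.38 ± 0.49, adjusted p = 0.0087). Of 52 tested genes of calcium handling and ion channels, 8 rose and 3 fell, with a median of 0.09, against 2.64% and 2.66% of all genes and a median of 0.00.

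Other called channel genes changed less. Gja1, encoding connexin 43, the main gap junction protein of ventricular myocytes, rose from 351, 470, 432 and 367 CPM to 650, 601 and 641 CPM (0.64 ± 0.13, adjusted p = 0.0048). Gja5 (connexin 40) rose by 0.56 ± 0.14 and Casq2 (calsequestrin, the calcium buffer of the sarcoplasmic reticulum) by 0.39 ± 0.11. Kcnj5, a subunit of the acetylcholine-gated potassium channel, rose by 0.35 ± 0.10 and Camk2b, a calcium/calmodulin-dependent kinase, by 0.56 ± 0.17. Cacna1c, the pore of the L-type calcium channel, fell slightly, from 506 to 559 CPM in wild type to 450 to 457 CPM (-0.22 ± 0.06, adjusted p = 0.035). Itpr2, an inositol trisphosphate receptor, fell from 61.4 to 79.1 CPM to 47.6 to 50.7 CPM (-0.51 ± 0.13). Connexin 43 and connexin 40 thus rose together while the L-type channel and an intracellular release channel fell. With wild-type replicates 2 and 3 as the only controls, Cacna1h, Gja5 and Itpr2 passed, and Kcne1, Gja1, Cacna1c, Camk2b, Casq2 and Kcnj5 did not (adjusted p = 0.16, 0.14, 0.16, 0.29, 0.33 and 0.48). In the whole list 2 genes rose and 2 fell with these controls, and 4 to 8 rose when a single library was left out, the lowest without PKCδ replicate 3. Falls were then 0 to 2, beside 3 with every library. Of 17 alternative settings, Cacna1c lost the call in 8, Itpr2 in 5, and Gja1 and Gja5 in 1 each.

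Olfml2b, an olfactomedin-domain protein of the extracellular matrix, rose from 12.1, 16.8, 16.2 and 11 CPM to 68.1, 54.7 and 54.9 CPM (2.09 ± 0.25, adjusted p = 5.9e-05). PKCε-null and combined hearts were also high (34.5 to 63 and 63.5 to 82.8 CPM), and the direct contrast with PKCε-null hearts did not pass (0.17, adjusted p = 0.83). Nacad, a protein related to the nascent polypeptide-associated complex, rose from 2.96, 3.83, 3.42 and 2.74 CPM to 10.3, 12.7 and 10.7 CPM (1.80 ± 0.21, adjusted p = 1.2e-05). It stood apart from PKCε-null hearts as well (1.74, adjusted p = 6.4e-05). Cd59a, which encodes the cell-surface inhibitor of the complement membrane attack complex, rose from 19.5, 17.2, 17.7 and 19.6 CPM to 50, 52.4 and 56.7 CPM (1.52 ± 0.17, adjusted p = 1.2e-05). Its level was 14.4 to 25.4 CPM in the combined knockout and 10.4 to 17.2 CPM after TAC with PKCδ ablated, and the effect differed in both settings (-1.77, adjusted p = 0.00015, and -1.91, adjusted p = 0.00059).

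Slc7a1, the cationic amino acid transporter CAT1, had the smallest adjusted p of all genes and was singled out for it after its values were seen. It was at 70.6, 86.1, 75.7 and 70.3 CPM in wild type and at 179, 173 and 176 CPM in PKCδ-ablated hearts (1.22 ± 0.12, adjusted p = 1.3e-06). The spread within each group was small beside the 2.32-fold difference. Slc1a4, a transporter of neutral amino acids, rose from 2.52, 2.86, 4.92 and 2.81 CPM to 7.66, 14.6 and 11.4 CPM (1.81 ± 0.30, adjusted p = 0.00076). Tfrc, the transferrin receptor that imports iron, rose from 10.9, 27, 16.5 and 12.5 CPM to 46.7, 54.5 and 61.4 CPM (1.70 ± 0.28, adjusted p = 0.00099). Among wild-type libraries, replicate 2 was the nearest to the ablated level of Tfrc. Slc41a3, a magnesium transporter family member, rose by 1.39 ± 0.28 and Ucp2, an uncoupling protein of the inner mitochondrial membrane, by 1.30 ± 0.33, from 90.2 to 137 CPM to 294 to 303 CPM.

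Plekha7 and Hddc3 rest on less firm ground. Plekha7, a protein of adherens junctions, was at 3.53, 29.2, 2.91 and 3.08 CPM in wild type and at 45.5, 57.5 and 47.9 CPM in PKCδ-ablated hearts (2.36 ± 0.61, adjusted p = 0.03). Wild-type replicate 2 alone was near the ablated range, and the call was lost without any single library of either group except wild-type replicate 2. Hddc3, a HD-domain hydrolase, rose from 3.01 to 3.76 CPM to 15.1 to 15.9 CPM (2.18 ± 0.58, adjusted p = 0.032). Exons of genes on the opposite strand, Man2a2 among them, cover 76.3% of its exonic bases, and without strand their reads cannot be told apart.

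Genes of the circadian clock and its outputs differed between the groups. In the clock, the activators Arntl (BMAL1) and Clock drive Per and Cry genes through E-boxes, PER and CRY proteins repress them in return, and the nuclear receptors NR1D1 and ROR act on Arntl through ROR elements, so that the parts peak at different hours. Glucocorticoids, which also follow the day, induce Per1, Fkbp5, Klf9 and Zbtb16. Promoters of 5 called genes that hold such a motif are shown with the motif in capitals, as RefSeq gives them for GRCm38.p6, from 250 bases before to 50 after the start site and 5′ to 3′ on the gene's strand. Arntl (chr7:113207261-113207560, plus strand) and Leo1 (chr9:75441274-75441573, plus strand) hold the ROR element TAGGTCA, and Cry1 (chr10:85185005-85185304, minus strand), Tef (chr15:81802423-81802722, plus strand) and Klf15 (chr6:90462326-90462625, plus strand) the E-box CACGTG.
Arntl: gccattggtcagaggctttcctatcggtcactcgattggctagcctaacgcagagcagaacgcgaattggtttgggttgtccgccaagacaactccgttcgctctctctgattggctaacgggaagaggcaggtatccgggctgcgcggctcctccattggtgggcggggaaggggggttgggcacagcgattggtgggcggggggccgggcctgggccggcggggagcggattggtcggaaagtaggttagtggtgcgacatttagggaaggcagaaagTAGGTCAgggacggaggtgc
Leo1: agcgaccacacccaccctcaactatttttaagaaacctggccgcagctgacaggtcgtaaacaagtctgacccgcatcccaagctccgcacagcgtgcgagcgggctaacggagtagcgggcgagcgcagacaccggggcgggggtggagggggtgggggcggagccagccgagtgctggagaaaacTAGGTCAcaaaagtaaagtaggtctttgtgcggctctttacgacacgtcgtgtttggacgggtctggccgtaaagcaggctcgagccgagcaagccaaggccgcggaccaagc
Cry1: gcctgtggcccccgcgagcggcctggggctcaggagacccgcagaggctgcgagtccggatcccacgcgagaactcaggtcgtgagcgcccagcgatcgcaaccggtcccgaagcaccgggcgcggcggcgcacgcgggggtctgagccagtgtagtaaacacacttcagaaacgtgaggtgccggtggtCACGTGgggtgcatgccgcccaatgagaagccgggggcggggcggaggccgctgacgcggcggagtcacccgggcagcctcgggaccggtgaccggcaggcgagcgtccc
Tef: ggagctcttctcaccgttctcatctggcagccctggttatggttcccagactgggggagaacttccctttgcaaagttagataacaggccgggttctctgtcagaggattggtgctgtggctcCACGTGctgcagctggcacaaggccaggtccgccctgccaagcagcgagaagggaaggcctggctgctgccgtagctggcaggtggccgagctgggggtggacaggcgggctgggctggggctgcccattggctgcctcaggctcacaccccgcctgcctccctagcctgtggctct
Klf15: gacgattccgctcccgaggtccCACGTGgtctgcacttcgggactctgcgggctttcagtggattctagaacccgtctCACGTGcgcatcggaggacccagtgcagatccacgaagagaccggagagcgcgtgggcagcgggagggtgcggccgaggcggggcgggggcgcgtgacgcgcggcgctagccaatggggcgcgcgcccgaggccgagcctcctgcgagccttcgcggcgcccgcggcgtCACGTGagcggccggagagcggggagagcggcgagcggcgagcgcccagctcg

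Both strands were searched over 32851 promoter windows of 300 bases, of which 7.15% held CACGTG and 2.61% held TAGGTCA. The element lies 30 bases past the start site in Arntl and 63 before it in Leo1, and the E-box 60 bases before it in Cry1 and 127 in Tef, while Klf15 holds 3 E-boxes at 228, 172 and 3 bases before it. The E-box also occurs in the Fkbp5 window. A match describes the letters and says nothing of binding.

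The 5 promoters were chosen for holding a motif. Among called genes of the clock, output and glucocorticoid lists whose windows were searched, Clock and Nr1d1 held no ROR element, and Usp2, Klf9, Pik3r1 and Herpud1 held no E-box. Per2, Wee1 and Zbtb16 were not searched.

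Arntl was at 1.15, 1.28, 1.91 and 1.74 CPM in wild type and at 8.51, 8.2 and 7.04 CPM in PKCδ-ablated hearts (2.39 ± 0.60, adjusted p = 0.025). Leo1, a subunit of the PAF1 transcription elongation complex that was listed here with clock outputs, was at 11, 13.7, 12.4 and 12.7 CPM and at 25.5, 21.7 and 23.5 CPM (0.92 ± 0.14, adjusted p = 0.00015). No ablated library overlapped wild type for either gene, a pattern of 20.0% of all genes that the rule for Arntl required. Clock rose from 33.4, 25.5, 32.2 and 33.3 CPM to 59, 51.5 and 54.6 CPM (0.82 ± 0.15, adjusted p = 0.0018). Nr1d1, which encodes the repressor REV-ERBα, rose from 249, 256, 159 and 241 CPM to 330, 351 and 334 CPM (0.58 ± 0.17, adjusted p = 0.042).

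Other clock and output genes fell. Cry1 fell from 9.95, 10.6, 12.1 and 9.7 CPM to 5.44, 6.02 and 5.22 CPM (-0.92 ± 0.17, adjusted p = 0.0015). Per2 fell from 76.3, 52.2, 55.3 and 72.7 CPM to 15.9, 20.7 and 19.7 CPM (-1.77 ± 0.52, adjusted p = 0.049). Every wild-type library was above every ablated library for both, which the rule that picked Per2 required. Tef, a PAR bZip transcription factor that carries the rhythm to metabolic genes, fell from 284, 251, 279 and 289 CPM to 112, 128 and 138 CPM (-1.13 ± 0.29, adjusted p = 0.029). Wee1, a kinase that holds cells before mitosis and a classic clock output, fell from 16.9, 8.79, 13.9 and 16.9 CPM to 3.66, 3.01 and 4.69 CPM (-1.89 ± 0.34, adjusted p = 0.0018). Usp2, a deubiquitinase, fell by 0.74 ± 0.19 and Pik3r1, the regulatory subunit of PI3-kinase, by 0.69 ± 0.17 on the log2 scale. Herpud1, a component of endoplasmic reticulum-associated degradation, fell by 0.86 ± 0.25.

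**Figure D3:**
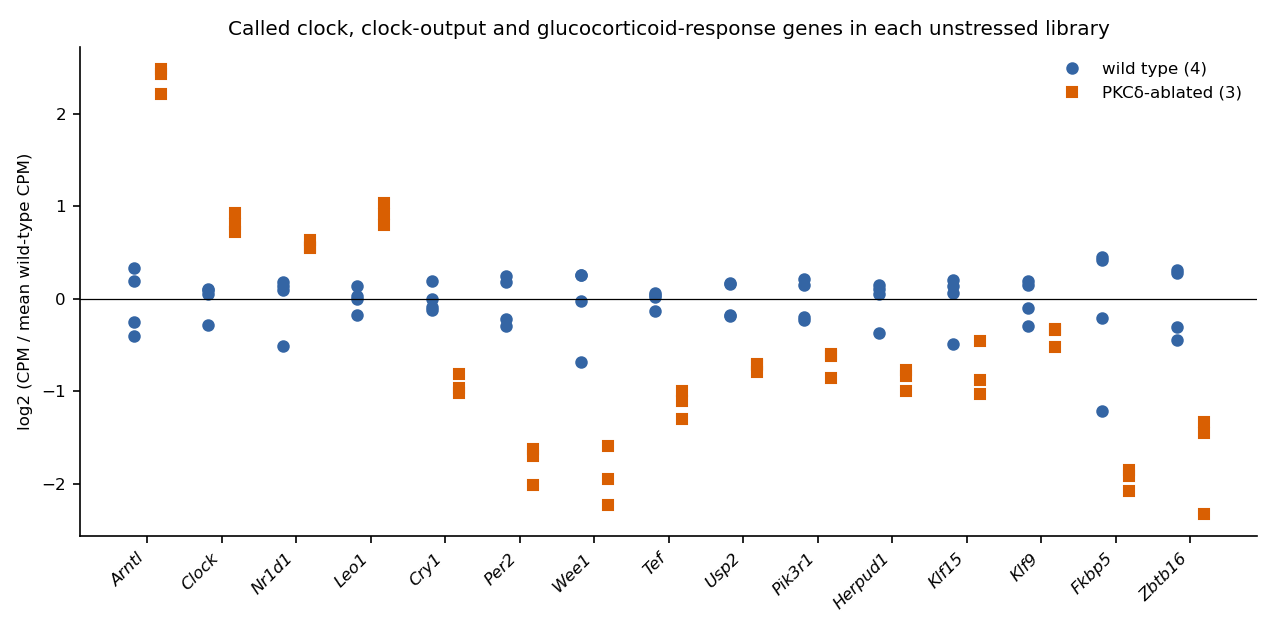
Log2 of each unstressed library's CPM over the wild-type mean for 15 called genes of the clock, clock-output and glucocorticoid lists, wild type as blue circles and PKCδ-ablated as orange squares. Arntl, Clock, Nr1d1 and Leo1 lie above and the other 11 below the wild-type mean in every ablated library, and wild-type replicate 2 gives the low circle of Fkbp5 and Klf15.

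Of 20 tested clock genes, 3 rose and 2 fell (median -0.26), and of 23 clock output genes, 1 rose and 8 fell (median -0.58), beside 2.64% of all genes higher and 2.66% lower. Other clock genes were separated without passing the test. Per3 was at 71.2, 72.7, 77.8 and 72.4 CPM in wild type and at 31.1, 33.1 and 35.3 CPM in PKCδ-ablated hearts (-1.15 ± 0.38, adjusted p = 0.087), and Dbp, a PAR bZip factor, at 106, 118, 79.9 and 107 CPM and at 50.8, 54.5 and 61.5 CPM (-0.88 ± 0.47, adjusted p = 0.31). Their spread in the model is that of all 29 libraries, and clock genes varied within other groups: Arntl was at 8.9, 11.1 and 2.02 CPM in the 3 PKCε-null unstressed libraries. With only the 7 libraries of the comparison, 2 clock genes rose and 5 fell, and 1 output gene rose and 10 fell. With only the 14 unstressed libraries, 2 clock genes rose and 1 fell, and 1 output gene rose and 3 fell. The replicate number as a block gave 5 output falls, and leaving out a single library gave 1 to 9. Per2 and Nr1d1 each lost the call in 12 of 17 alternative settings. With wild-type replicates 2 and 3 as the only controls 1 clock gene rose (Clock) and 1 fell (Cry1), and of the outputs 1 rose (Leo1) and none fell; the fold changes of Arntl, Per2 and Tef were then 2.33, -1.52 and -1.07 (adjusted p = 0.19, 0.26 and 0.17). Hour of collection and genotype cannot be told apart here, since the hours are not given.

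Glucocorticoid-responsive genes fell in 4 of 18 tested cases and rose in none (median -0.58), beside falls in 2.66% of all genes. The list shares members with the clock outputs, Klf15 among them, so the falls of both lists are partly the same genes. No member of the list fell with wild-type replicates 2 and 3 as the only controls, or without wild-type replicate 1, wild-type replicate 4, PKCδ replicate 1 or PKCδ replicate 3, and 2 fell without PKCδ replicate 2. Fkbp5, a chaperone of the glucocorticoid receptor and one of its most responsive targets, was at 82.1, 26.4, 53.3 and 84 CPM in wild type and at 14.5, 17 and 16.3 CPM in PKCδ-ablated hearts (-1.95 ± 0.56, adjusted p = 0.048). Zbtb16, a zinc-finger transcription factor, was at 314, 186, 206 and 309 CPM and at 50.6, 101 and 92.6 CPM (-1.64 ± 0.41, adjusted p = 0.026). In both, wild-type replicates 1 and 4 were the highest, and with replicates 2 and 3 as the only controls neither passed (-1.31, adjusted p = 0.37, and -1.27, adjusted p = 0.22). Klf15, a regulator of fuel use in the heart, fell from 83.7, 51.7, 75.9 and 80.1 CPM to 35.6, 53 and 39.6 CPM (-0.77 ± 0.19, adjusted p = 0.021), and its groups overlapped, since wild-type replicate 2 was below PKCδ replicate 2. Klf9, a related factor, fell by 0.39 ± 0.11. With the same controls these had -0.58 (adjusted p = 0.22) and -0.20 (adjusted p = 0.49). Other responsive genes did not pass: Per1 was at 209, 76.7, 146 and 202 CPM against 104, 102 and 86.5 CPM (-0.70 ± 0.33, adjusted p = 0.23).

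The largest fall among genes of moderate level was in Inmt, which encodes a methyltransferase of indolamines. It went from 22.6, 8.49, 13.6 and 21.3 CPM to 2.04, 2.26 and 2.12 CPM (-2.95 ± 0.60, adjusted p = 0.0074). The ablated libraries were alike and the wild-type libraries spread, replicates 1 and 4 being highest, and with replicates 2 and 3 alone the difference was -2.35 (adjusted p = 0.11). Osgin1, an oxidative stress-induced growth inhibitor, fell from 5.77, 5.63, 5.53 and 6.89 CPM to 2.04, 1.92 and 1.82 CPM (-1.63 ± 0.26, adjusted p = 0.0003). It was the only one of 30 antioxidant genes called, beside 5.30% of all genes. Lonrf1, a RING-finger protein, fell from 11.8, 13.7, 16 and 11.8 CPM to 4.68, 4.52 and 6.2 CPM (-1.36 ± 0.20, adjusted p = 0.00013). Both held with wild-type replicates 2 and 3 as the only controls (-1.53, adjusted p = 0.014, and -1.52, adjusted p = 0.0011).

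Fmo2, a flavin-containing monooxygenase, fell from 19.6 to 46.5 CPM to 11.2 to 12.6 CPM (-1.62 ± 0.43, adjusted p = 0.032). Arrdc2, an arrestin-domain protein, fell from 6.16 to 16.9 CPM to 3.57 to 4.77 CPM (-1.48 ± 0.34, adjusted p = 0.015), and Rhobtb1, an atypical member of the small GTPases, from 157 to 239 CPM to 65 to 88.2 CPM (-1.39 ± 0.33, adjusted p = 0.018). In these genes wild-type replicates 1 and 4 were above replicates 2 and 3, and none of them passed with the latter as the only controls. Mid1ip1, a regulator of lipogenesis, fell from 189, 189, 180 and 179 CPM to 60.5, 85 and 62 CPM (-1.42 ± 0.23, adjusted p = 0.001), with no such spread in wild type. Exons on the opposite strand cover 25.5% of its exonic bases. Ppl, the cytolinker periplakin, fell by 1.38 ± 0.30 on the log2 scale.

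Of 50 nuclear-encoded genes of the respiratory chain, none rose and 4 fell (median -0.06), beside falls in 2.66% of all genes: Ndufc2 (complex I) from 96.7, 68, 86.9 and 78.4 CPM to 48.3, 60.8 and 56.2 CPM (-0.58 ± 0.10, adjusted p = 0.00089), Cox6a2 (the muscle form of a complex IV subunit) by 0.60 ± 0.15, Uqcrq (complex III) by 0.45 ± 0.12 and Atp5g3 (ATP synthase) by 0.45 ± 0.12. For Cox6a2 and Uqcrq the libraries of the groups overlapped, PKCδ replicate 2 being within the wild-type range. Ndufc2 alone fell with wild-type replicates 2 and 3 as the only controls, and 1 member fell without wild-type replicate 1, PKCδ replicate 1 or PKCδ replicate 3. Of 40 genes of fatty acid oxidation, Ucp2 rose, and Acads, a short-chain acyl-CoA dehydrogenase, and Fabp4, a fatty acid binding protein, fell by 0.32 ± 0.08 and 0.40 ± 0.11. Of 30 genes of glucose transport and glycolysis, Pgam1, phosphoglycerate mutase, rose by 0.35 ± 0.10 and Slc2a4, the insulin-responsive glucose transporter GLUT4, fell from 651 to 675 CPM to 526 to 562 CPM (-0.29 ± 0.07, adjusted p = 0.017). The calls of the fatty acid and glucose lists stand beside 2.64% of all genes higher and 2.66% lower.

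Of 26 tested genes of hypertrophic stress, 1 rose, beside 2.64% of all genes. It was Gata4, a cardiac transcription factor, from 152, 164, 165 and 154 CPM to 203, 190 and 186 CPM (0.28 ± 0.07, adjusted p = 0.012, and 0.22 with adjusted p = 0.19 against wild-type replicates 2 and 3 alone). None fell. Acta1, skeletal α-actin, which the fetal and the overloaded heart express, was at 282, 186, 299 and 257 CPM in wild type and at 982, 581 and 477 CPM in PKCδ-ablated hearts. The groups did not overlap, yet the difference did not pass (1.41 ± 0.44, adjusted p = 0.067). The natriuretic peptide gene Nppa was at 137 to 160 CPM and at 116 to 133 CPM (-0.20 ± 0.47, adjusted p = 0.86), and Myh7, the slow myosin heavy chain, at 160 to 204 CPM and at 129 to 146 CPM (-0.44 ± 0.40, adjusted p = 0.58).

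The other PKC genes did not pass either. None of 12 tested genes of PKC and protein kinase D isoforms was called by edgeR, with 3 at an unadjusted p below 0.05, and DESeq2 called 1. Over all genes edgeR called 5.30%, so the absence of calls in a list this short says little. Prkcb was at 6.78, 6.09, 6.13 and 6.22 CPM in wild type and at 11.1, 8.87 and 7.87 CPM in PKCδ-ablated hearts (0.56 ± 0.17, adjusted p = 0.056). Prkca, the main calcium-dependent isoform of the heart, was at 20.7 to 21.4 CPM and at 22.9 to 29.8 CPM (0.29 ± 0.09, adjusted p = 0.06). Of 33 genes of PKC substrates, anchors and diacylglycerol control, 1 rose and 1 fell, near the shares of all genes, 2.64% and 2.66%. Both encode diacylglycerol kinases, which remove the activator of PKCδ. Dgki was low throughout, with 1, 1, 1 and 2 counts in wild type and 9, 7 and 11 counts in PKCδ-ablated hearts (2.82 ± 0.57, adjusted p = 0.004), and DESeq2 gave 2.92 with no adjusted p. Dgke fell from 12.7, 11, 14.5 and 11.4 CPM to 9.53, 7.53 and 8.93 CPM (-0.51 ± 0.14, adjusted p = 0.028).

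Matrix genes were called in both directions, 2 higher and 2 lower of 64 (median 0.10), near the shares of all genes, 2.64% and 2.66%. Beside Olfml2b, Fbn1, the microfibril protein fibrillin 1, rose from 152, 133, 120 and 153 CPM to 250, 229 and 230 CPM (0.76 ± 0.18, adjusted p = 0.018). Timp3, an inhibitor of matrix metalloproteinases, fell from 317, 215, 270 and 313 CPM to 145, 137 and 136 CPM (-1.0 ± 0.21, adjusted p = 0.0099), and Nid1, a basement membrane protein, by 0.34 ± 0.10. Exons of opposite-strand genes cover 20.1% of Fbn1 and 21.3% of Timp3. Among chaperones of the endoplasmic reticulum, Hspa5 (BiP) rose from 181, 229, 240 and 180 CPM to 260, 333 and 326 CPM (0.56 ± 0.14, adjusted p = 0.02) and Hsp90b1 (GRP94) by 0.36 ± 0.09. They were the only rises among 26 genes of endoplasmic reticulum stress, beside 2.64% of all genes, and Herpud1 was the only fall, beside 2.66%. Hspb3, a small heat shock protein of muscle, rose by 0.64 ± 0.15, the only call among 26 chaperones, beside 5.30% of all genes.

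In proliferation genes, 2 of 45 rose and 1 fell (median 0.24), near the shares of all genes, 2.64% and 2.66%. Cenpf, a kinetochore protein of dividing cells, rose from 21.3, 25.5, 16.7 and 20.3 CPM to 38.3, 36.7 and 45.2 CPM (0.93 ± 0.16, adjusted p = 0.00076), Rrm1, a subunit of ribonucleotide reductase, by 0.55 ± 0.16, and Cdkn1b, the cell cycle inhibitor p27, fell by 0.47 ± 0.12. Cenpf kept its call in each alternative. The immediate early genes Jund and Ier5 fell by 0.50 ± 0.13 and 0.71 ± 0.19. They were the only calls among 30 genes of ERK feedback, beside 5.30% of all genes. Of the exonic bases of Jund, 52.6% are shared with a gene on the opposite strand. Lmod2, leiomodin 2, which elongates the thin filament of the sarcomere, fell from 966, 719, 873 and 1026 CPM to 619, 596 and 640 CPM (-0.53 ± 0.13, adjusted p = 0.02).

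By edgeR, none of 19 fibroblast and none of 14 pericyte and smooth muscle markers was called (3 and 3 at an unadjusted p below 0.05, and 1 and 0 called by DESeq2), and their summed levels overlapped between the groups. With 5.30% of all genes called, few calls would be looked for in lists of this size. Of 24 macrophage markers 1 rose, beside 2.64% of all genes. It was the fractalkine receptor Cx3cr1, from 6.71, 8.57, 3.72 and 7.49 CPM to 16.1, 11.5 and 11.9 CPM (0.97 ± 0.22, adjusted p = 0.012). Of 19 endothelial markers 5 fell, beside 2.66% of all genes: Flt1, a VEGF receptor, from 196, 185, 219 and 210 CPM to 159, 152 and 156 CPM (-0.38 ± 0.09, adjusted p = 0.0096), Sox17 by 0.84 ± 0.21, Robo4 by 0.26 ± 0.07, Fabp4 by 0.40 ± 0.11 and Ly6c1 by 0.46 ± 0.13. The defining endothelial markers Pecam1 (179 to 197 CPM in wild type, 187 to 204 CPM in PKCδ-ablated hearts) and Cdh5 (358 to 390 and 365 to 410 CPM) overlapped between the groups, and the median of the list was -0.07. With wild-type replicates 2 and 3 as the only controls none of the 5 passed (adjusted p = 0.086, 0.2, 0.21, 0.42 and 0.36 in that order). Without wild-type replicate 1, PKCδ replicate 1 or PKCδ replicate 3 the list had 1 fall, and without wild-type replicate 4 or PKCδ replicate 2 it had 2. With bulk RNA, fewer cells of a type and less RNA per cell cannot be told apart. Of 16 cardiomyocyte markers Cox6a2 fell, as did Tnni3, cardiac troponin I, from 5137 to 5634 CPM to 4471 to 4825 CPM (-0.25 ± 0.07, adjusted p = 0.04), and of 13 markers of atrial and conduction myocytes Gja5 rose and Tbx3, a transcription factor of the conduction system, fell by 0.39 ± 0.11. Over all genes, 2.64% rose and 2.66% fell, and lists this short can hold single calls at such shares.

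**Figure D4:**
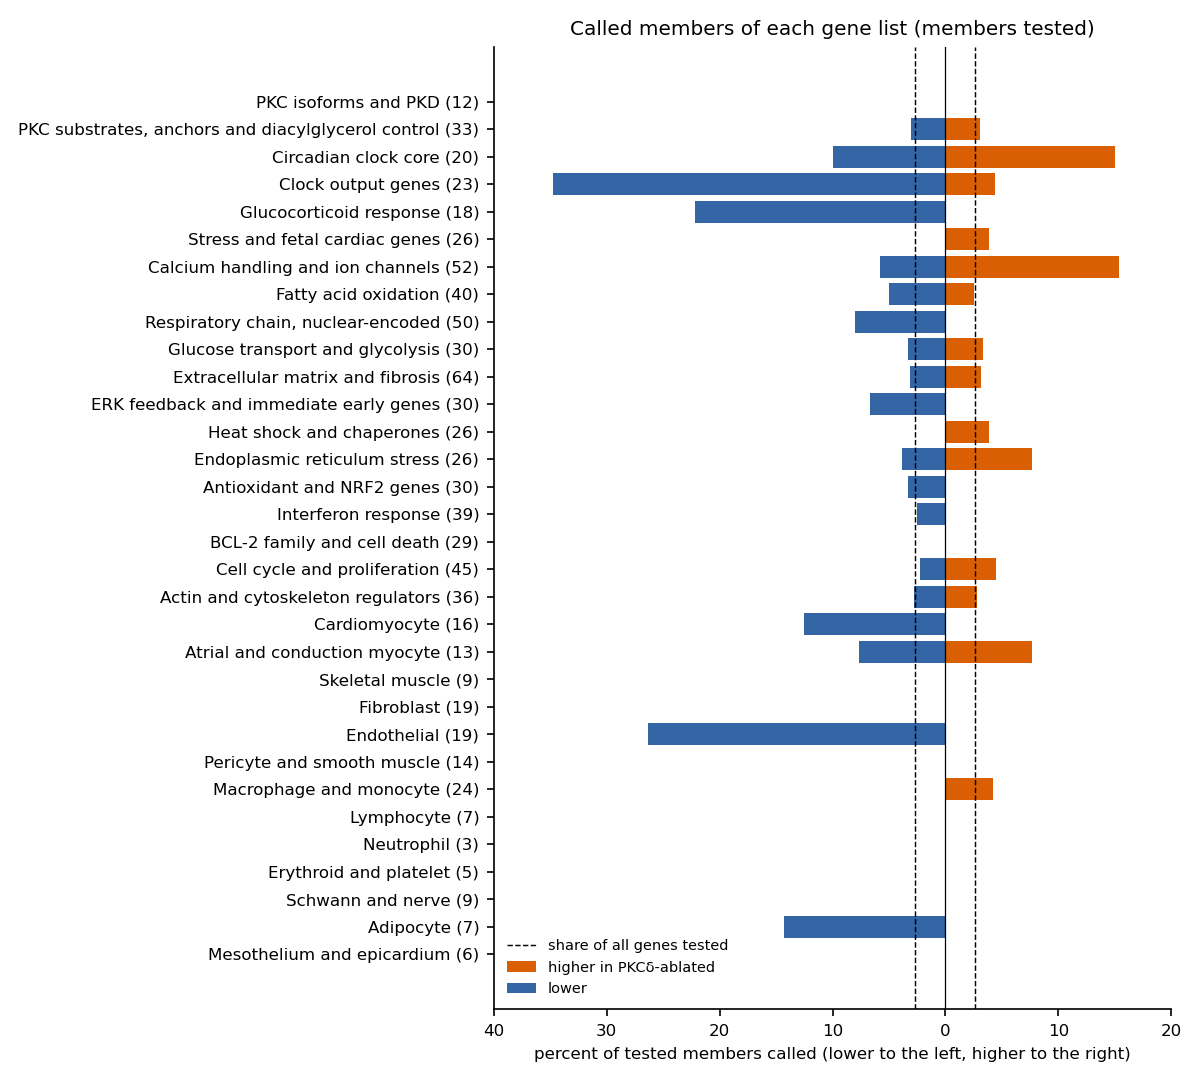
Percent of the tested members of each gene list that were called higher (orange, to the right) or lower (blue, to the left) in PKCδ-ablated hearts, with the number tested in brackets; dashed lines mark the same shares over all genes tested, 2.64% and 2.66%. The longest bars are falls among clock output, endothelial and glucocorticoid genes and rises among ion channel and clock genes. With wild-type replicates 2 and 3 as the only controls none of the first 3 lists had a called fall, and 2 channel genes rose. Lists can share members: Klf15 is in both the clock output and the glucocorticoid list.

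Several falls lay together on chromosome 7. In its window from 90 to 100 Mb, 9 of 52 tested genes were called (17.3%), all of them lower, beside 5.30% of all genes called and 2.66% lower. This window and that on chromosome 11 below were picked for the highest shares of called genes among 10 Mb windows with at least 30 tested genes. The window from 20 to 30 Mb also had 9 called genes, all lower, of 125 tested (7.2%). Mogat2 (chr7:99219084-99238611), a monoacylglycerol acyltransferase, was all but lost: its counts were 26, 15, 22 and 21 in wild type and 1, 0 and 0 in PKCδ-ablated hearts (adjusted p = 0.00015, with none given by DESeq2). It was named after its values were seen, as were Myo7a and Slco2b1. Its neighbour Dgat2 (chr7:99153663-99182713), which makes triglyceride from diacylglycerol, fell from 470, 334, 445 and 448 CPM to 183, 198 and 178 CPM (-1.19 ± 0.18, adjusted p = 0.0005). Map6, a microtubule-stabilising protein encoded next to them (chr7:99266779-99337137), fell from 8.29, 6.69, 9.34 and 6.15 CPM to 2.89, 3.6 and 3.56 CPM (-1.17 ± 0.27, adjusted p = 0.012). Myo7a, an unconventional myosin, fell from 23.7, 15.8, 19.2 and 21.4 CPM to 10.2, 9.54 and 9.38 CPM (-1.05 ± 0.13, adjusted p = 2.1e-05), and Slco2b1, an organic anion transporter, by 0.73 ± 0.12. The groups did not overlap for any of these genes, a pattern that 20.0% of all genes showed. The rule that picked Dgat2 and Map6 required it, so it is no separate support.

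On the same chromosome, Trim12a (chr7:104299893-104315558), of the TRIM5-related family, fell from 105, 58, 58 and 101 counts to 2, 1 and 6 counts (-4.61 ± 0.80, adjusted p = 0.0018). Its window, from 100 to 110 Mb, had 12 of 87 tested genes called (13.8%), 8 higher and 4 lower, beside 2.64% and 2.66% of all genes. Trim12a was the only one of 39 interferon-response genes called, beside 5.30% of all genes. Since it has the close copy Trim12c, its count depends on how reads were shared out. Mogat2, Trim12a, Dgat2, Map6 and Myo7a also fell with PKCδ loss in PKCε-null hearts (-3.37, -3.44, -0.63, -0.86 and -0.64, adjusted p = 0.00012, 0.00079, 0.012, 0.024 and 0.0004). The other 5 called genes of the window from 90 to 100 Mb did not pass there: Slco2b1 (-0.18, adjusted p = 0.27), Ndufc2 (-0.11, adjusted p = 0.44), Fam181b (-0.59, adjusted p = 0.21), Crebzf (0.10, adjusted p = 0.66) and Rnf169 (0.02, adjusted p = 0.906). After TAC the differences of Mogat2, Trim12a, Dgat2, Map6 and Myo7a were 0.73, 0.25, 0.30, 0.10 and -0.19, none of which passed. Trim12a levels in CPM were 4.73 to 7.14 in the PKCδ-ablated TAC libraries and 4.73 to 5.63 in wild-type TAC libraries, against 0.0837 to 0.454 in the unstressed ablated libraries.

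A second dense window, picked in the same way, was the first 10 Mb of chromosome 11, with 17 of 81 tested genes called (21%), 8 higher and 9 lower, Nacad among them. Of all genes, 2.64% were higher and 2.66% lower. Around Prkcd itself, 8 of 105 genes tested within 10 Mb on either side were called (7.62%, beside 5.30% of all genes). Gdf10, a growth factor of the TGF-β family, fell from 6.63, 2.33, 4.82 and 5.95 CPM to 1.19, 1.17 and 0.757 CPM (-2.25 ± 0.42, adjusted p = 0.0018). Galnt15, which starts O-glycans, Usp54, a ubiquitin protease homologue, and Slmap, a sarcolemmal membrane protein, fell by 0.84 ± 0.17, 0.54 ± 0.13 and 0.36 ± 0.09. Colq, the collagen tail of acetylcholinesterase, Vstm4, an immunoglobulin-like membrane protein, Polr3a, the largest subunit of RNA polymerase III, and Ncoa4, the receptor that sends ferritin to autophagy, rose by 0.91 ± 0.20, 0.71 ± 0.16, 0.43 ± 0.10 and 0.34 ± 0.10.

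The same loss was then read in PKCε-null hearts, in 7 libraries that the first comparison did not use. PKCδ loss changed 3472 genes there (25.2%), 1845 higher (13.4%) and 1627 lower (11.8%). Of the 729 genes, 255 were called in it, 182 in the same direction (125 higher, 57 lower) and 73 in the opposite one. The 182 are 25% of the first list and 5.24% of the second. The difference between the effects was itself called for 308 of the 729 (42.2%), beside 15.4% of all genes (8.36% with a positive and 7.08% with a negative difference), in a test that includes the libraries that chose the 729. Among named genes, Ndnf, Cacna1h, Kcne1 (1.35, adjusted p = 0.028), Ucp2 (1.90, adjusted p = 0.00063), Dgki (3.17, adjusted p = 0.00045) and Cx3cr1 (0.64, adjusted p = 0.031) rose in both backgrounds. Arntl, Tfrc, Clock, Fkbp5 and Wee1 did not follow, with -0.53, -0.32, -0.27, 0.66 and -0.02, and none of these 5 passed. Arntl was at 4.29, 7.11, 2.67 and 5.9 CPM in the combined knockout.

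After TAC, edgeR called none of the 13765 genes (0%) between PKCδ-ablated and wild-type hearts, and DESeq2 none. At an unadjusted p below 0.05 edgeR had 482 genes and DESeq2 443. Of the 729, 40 were below it and 9 of these in the unstressed direction. The median of the 729 in their unstressed direction was -0.03, beside 0.51 in unstressed hearts and 0.09 in the PKCε-null background. The effect differed between TAC and unstressed hearts for 125 genes (0.908%, of which 0.312% had a positive and 0.596% a negative difference), among them 123 of the 729, again with shared libraries. Olfml2b went from 2.09 to -0.42 (difference of -2.51, adjusted p = 0.0018), Cacna1h from 2.02 to -0.84 (-2.85, adjusted p = 0.0095) and Lonrf1 from -1.36 to 0.36 (1.72, adjusted p = 0.0018). Without PKCδ TAC replicate 1, 12 genes had a different effect. The TAC libraries are a mix of hearts labelled male and female, and the sex term of the model rests on them.

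**Figure D5:**
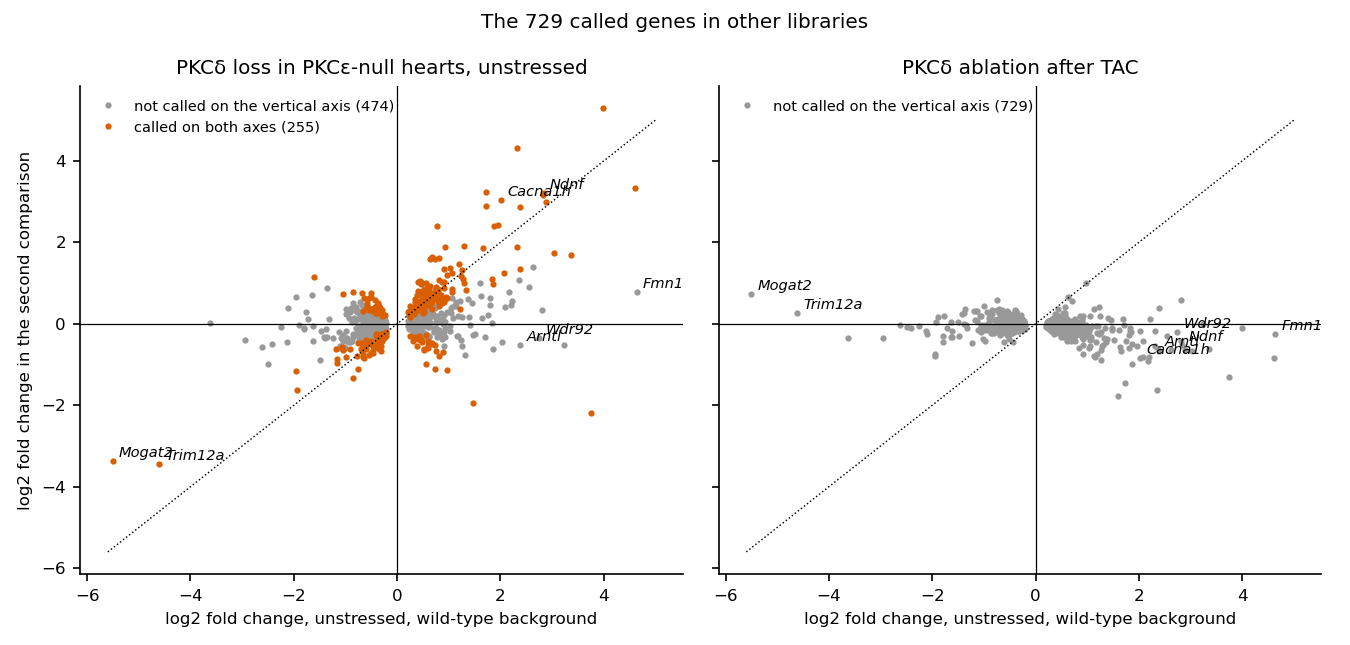
For the 729 called genes, the log2 fold change of PKCδ ablation in unstressed wild-type background (horizontal) is plotted against that in unstressed PKCε-null hearts (left) and after TAC (right); the dotted line marks equal values. On the left 255 genes are called on both axes, with points along the line and across it, and on the right no gene is called on the vertical axis.

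Set directly against PKCε-null hearts, unstressed PKCδ-ablated hearts differed in 261 genes (1.90%), 132 higher (0.959%) and 129 lower (0.937%). Both single ablations are compared with the same wild-type libraries above, so the direct contrast is the test of what separates them. Y-linked transcripts were at 44.8, 58.8 and 0.0778 CPM in the PKCε-null libraries and at 0, 0 and 0.0757 CPM in the PKCδ-ablated ones. Genotype and these transcripts thus partly coincide in this contrast, and what each contributes was not tested. Fmn1 (4.55, adjusted p = 0.004), Ndnf (2.72, adjusted p = 0.014), Cacna1h (1.67, adjusted p = 0.02), Slc1a4 (2.34, adjusted p = 0.00047), Slc7a1 (1.03, adjusted p = 4.6e-05) and Cd59a (1.22, adjusted p = 0.00048) were higher with PKCδ ablated. Mogat2 (adjusted p = 0.00047), Trim12a (-4.46, adjusted p = 0.0062), Myo7a (-1.09, adjusted p = 4e-05) and Dgat2 (-0.90, adjusted p = 0.014) were lower. In this contrast Arntl differed by 0.12, Clock by 0.09 and Per2 by -0.46. No gene of either clock list passed, beside 1.90% of all genes. At that share few calls would be looked for among 20 clock and 23 output genes. Leaving out a library gave 96 to 179 called genes in this contrast.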

How the data were processed

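RNA with poly(A) tails from the ventricular apex was read as single-end libraries without strand, per the labels' protocols; in the labels the tissue itself is called whole heart. The authors deposited raw counts for each gene symbol. The submitters' processing notes name mm10, TopHat2 2.0.10, Bowtie2, HTSeq, DESeq and edgeR. For annotation and parameters, the sources used here give nothing. Counts for genes with close copies or overlapping neighbours are uncertain. Some genes that the rules pick are not reported here. The 5 totals of reads outside genes stayed out of library sizes and tests.

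Groups follow the titles, with a library as a sample. No label ties libraries to separate animals, so p-values speak only of variation among these libraries, which may be technical. Genes were tested by edgeR's quasi-likelihood method with robust dispersion (edgeR 4.0.16, limma 3.58.1, R 4.3.3). TMM normalization, a filter on low counts by group, 8 group means and the sex label were used, over all 29 libraries with 20 residual degrees of freedom. Benjamini-Hochberg adjustment ran over 13765 genes in each of 6 comparisons, and genes with an adjusted p below 0.05 are called. Log2 fold changes carry their SE, and CPM are TMM-normalised. Alternatives were RLE size factors, no filter, no sex term, a Y-linked score in its place, the replicate number as a block, DESeq2 1.42.0, fewer groups, and libraries left out.

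The comparison, its gene lists (19 of pathways, 13 of cell types) and its rules were chosen with earlier results of these data known. The rule for named genes took Prkcd, Prkce and, in each direction, up to 15 called genes of largest fold change whose libraries did not overlap (minimum mean log2 CPM: 2). It also took called genes within 10 Mb of Prkcd (at most 8), the 4 members of smallest adjusted p in each list described, and genes called alike in all 3 PKCδ comparisons, of which there were 0 because TAC gave 0 calls. Outside the rule, Cacna1c, Camk2b, Casq2, Cdh5, Dbp, Itpr2, Kcnj5, Ly6c1, Man2a2, Mogat2, Myh7, Myo7a, Nppa, Pecam1, Per1, Per3, Ppp3r1, Rn45s, Slc7a1, Slco2b1, Tef, Trim12c, Usp2, Crebzf, Fam181b, Rnf169 and the sex-linked genes were named after their values were seen. Positions and promoters are RefSeq's for GRCm38.p6 (13715 of 13765 genes matched), and exon overlaps are from GENCODE vM21. The test was tried on simulated data of this comparison, with 200 changed genes among 13586. It found 66%, 96%, 100% and 100% of genes changed 1.5-, 2-, 4- and 8-fold. Of 194 calls 13 were false, and with no gene changed there were 0 calls. Apart from the changed genes, a simulated gene had the same mean in all groups, a spread set by level and no link to other genes. The simulated libraries thus lacked the Y-linked split and the closeness of some replicates, and the false calls speak only for that setting. Figures used matplotlib 3.10.9 in Python 3.11.15.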

Additional observations from a re-analysis of the deposited data

Results flagged for a closer look

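In 5 genes a single wild-type library stood apart from the other 3 by Dixon's ratio at the 95% level, which chance alone gives in about 1 of 20 groups. The ratio was taken for each gene described, 89 called genes among them, so this number of hits is near that of chance. Wild-type replicate 2 was high for Plekha7 (29.2 CPM, beside 2.91 to 3.53 in the other 3) and low for Clock (25.5 CPM, beside 32.2 to 33.4). Wild-type replicate 3 was high for Slc1a4 (4.92 CPM, beside 2.52 to 2.86) and low for Nr1d1 (159 CPM, beside 241 to 256) and Prkcd (13.4 CPM, beside 15.5 to 15.9). For Plekha7 and Slc1a4 the library lay towards the PKCδ-ablated level, and for the other 3 genes away from it.

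The effect of PKCδ ablation differed between TAC and unstressed hearts for 25 of the genes named above (edgeR, interaction term, adjusted p from 0.00032 to 0.044), each time against the direction of the unstressed effect. Crebzf, Fam181b and Rnf169 were not among the genes read here. For genes that rose in unstressed hearts the log2 difference was -4.89 for Fmn1, -2.95 for Wdr92, -2.51 for Olfml2b, -2.85 for Cacna1h, -2.39 for Nacad, -1.91 for Cd59a, -1.27 for Slc7a1 and -2.09 for Slc1a4, and it was -1.76 for Slc41a3, -1.22 for Leo1, -1.17 for Fbn1, -1.16 for Cenpf, -0.39 for Gata4, -1.66 for Colq and -0.95 for Hspb3. For genes that fell it was 2.07 for Wee1, 1.66 for Osgin1, 1.66 for Mid1ip1, 1.72 for Lonrf1, 1.49 for Dgat2, 4.86 for Trim12a, 0.56 for Slmap, 6.24 for Mogat2, 0.86 for Myo7a and 0.85 for Slco2b1. Since Mogat2 had 1 count in the unstressed PKCδ-ablated libraries, its fitted size depends on the prior count. The unstressed libraries that chose these genes are part of this test, and no cause was tested.

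Between the PKCε-null and the wild-type background the effect of PKCδ loss in unstressed hearts differed for 43 of these genes (adjusted p from 0.00015 to 0.046), again against its direction in wild-type background. Among genes that were higher there, the log2 difference was -0.62 for Prkcd, -3.86 for Fmn1, -3.10 for Wdr92, -1.67 for Olfml2b, -1.33 for Nacad, -1.77 for Cd59a, -0.84 for Slc7a1, -2.92 for Arntl and -2.02 for Tfrc. It was -1.22 for Slc41a3, -1.09 for Clock, -0.70 for Leo1, -0.62 for Gja1, -0.60 for Hspa5, -0.89 for Cenpf, -0.53 for Prkca, -0.88 for Vstm4, -0.60 for Ncoa4, -0.87 for Gja5 and -0.47 for Casq2. Among genes that were lower there, it was 2.55 for Inmt, 2.61 for Fkbp5, 1.87 for Wee1, 2.34 for Zbtb16, 1.57 for Osgin1, 1.09 for Mid1ip1, 1.27 for Ppl, 1.04 for Lonrf1 and 0.47 for Ndufc2. It was 0.79 for Cox6a2, 0.65 for Uqcrq, 0.56 for Atp5g3, 0.46 for Acads, 0.32 for Robo4, 1.36 for Herpud1, 0.53 for Cdkn1b, 0.32 for Slc2a4 and 2.18 for Gdf10, and 0.98 for Galnt15, 0.55 for Slco2b1, 1.06 for Usp2, 1.26 for Jund and 0.89 for Ier5. Prkcd and Prkca, which did not pass in the wild-type background, had effects of 0.21 and 0.29 there and of -0.41 and -0.25 in PKCε-null hearts.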

How the results depend on the processing

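The count of genes called between unstressed PKCδ-ablated and wild-type hearts was 729 and stayed within 1.5 times of that under other normalization, filter, sex term, tool and choice of groups (574 to 1067). It was 105 with wild-type replicates 2 and 3 as the only controls, and 206 to 750 when a library was left out. The called genes named in the text, except Crebzf, Fam181b and Rnf169, were followed across settings. Of these 89, 21 passed in each of the 17 settings that gave an adjusted p (DESeq2 gave none for Fmn1, Mogat2 and Dgki), and 66 did not pass with those 2 controls, where all 89 kept their direction. PKCδ loss in PKCε-null hearts gave 3472 calls, and 1998 to 3300 without a library. The contrast with PKCε-null hearts gave 261, and 96 to 179 without a library. The difference between backgrounds gave 2125, and 987 to 2370 without a library. The difference between TAC and unstressed hearts gave 125, but 244 in DESeq2, 199 with a Y-linked score in place of the sex label, and 12 to 176 without a library, the lowest without PKCδ TAC replicate 1. PKCδ ablation after TAC gave 0 in every setting. The causes were not tested. None of the 89 called genes followed changed direction in any setting. Each setting refits the same libraries or a part of them, and 682 of the 729 called genes had groups without overlap. The kept directions, with those 2 controls too, were thus largely fixed beforehand and are no separate support.

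Replicate numbers did not pair the libraries, since the deviations of same-numbered wild-type and PKCδ-ablated libraries correlated at -0.04, 0.07 and 0.06. With the replicate number as a block 574 genes were called, 545 of them among the 729. Not every library correlated best with its own number. Libraries of 10523709 to 15359296 gene counts leave genes such as Dgki, with 5 counts over the wild-type libraries, close to the limit of detection.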
